A study of Bos taurus with 14 samples.

Results

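RHOF and PLEK2 are a pair of genes whose products shape the actin cytoskeleton, and both are described here in endometrial explants of cattle that were cultured with or without sPIF. RHOF (ENSBTAG00000032534) encodes a small GTPase, a molecular switch that cycles between a GTP-bound and a GDP-bound state and is known for inducing filopodia, the thin actin-filled protrusions of the cell edge. PLEK2 (ENSBTAG00000016255) encodes pleckstrin 2, a membrane-associated protein with pleckstrin homology domains that bind products of phosphoinositide 3-kinase, known for its part in lamellipodia and cell spreading. In the endometrium, actin remodelling accompanies changes in epithelial and stromal cell shape around implantation.

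These 2 genes of the 24616 listed were selected on measured values: the study places both among the genes it called different between sPIF and Control explants, RHOF as lower and PLEK2 as higher. The difference between sPIF and Control is therefore a description of how they were chosen and was given no test. Testing covered the 13233 genes that had 10 counts or more in each library, and 0 (0%) of them were called for sPIF in edgeR's paired quasi-likelihood test at an adjusted p below 0.1. Before adjustment 1061 genes had a p under 0.05, and DESeq2's Wald test called 100 at the same adjusted threshold.

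Each of 7 heifers, called cows 1 to 7 here, gave 1 Control and 1 sPIF explant of intercaruncular endometrium, the lining between the sites where the placenta attaches, 14 libraries in all. sPIF is a synthetic form of preimplantation factor, a peptide secreted by the embryo. It was given at 100 nM for 24 h and again in fresh medium for 6 h, while Control wells had medium with an equal amount of DMSO for the same 30 h. Lane 1 of the flow cell held cows 1 to 4 and lane 2 cows 5 to 7, whose libraries were sequenced in 2 runs that were added together. By serum progesterone, with a threshold of 1 ng per mL, cows 2 to 5 formed the high and cows 1, 6 and 7 the low group. All uteri came from animals staged by a regressing corpus luteum, and breed and age are not given in the sources used here. The explants are whole tissue, in which fewer cells of a type and less RNA per cell cannot be told apart.

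The total count per library ran from 15885642 to 25771250 in the Control group and from 16377453 to 28625724 in the sPIF group, and sPIF had more counts than Control in 5 of 7 cows. Levels are given as CPM, the count relative to the size of its library after TMM normalization, a scaling by a trimmed mean of ratios between libraries, whose factors lay between 0.920 and 1.06. Cow 3 stood apart from the other animals. Its log2 differences between both explants had an SD of 0.759 over the tested genes, against 0.347 to 0.510 in the other 6 cows, so a number of the values are also given without cow 3.

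RHOF was lower in the sPIF explant of every cow, by 17.9% in cow 6 to 30.3% in cow 3. In the Control explants of cows 1 to 7 its level was 16.7, 14.9, 13.3, 18.6, 21.2, 22.2 and 22.1 CPM. In the sPIF explants of the same cows it was 13.5, 11.1, 9.27, 13.8, 16.1, 18.2 and 15.9 CPM. Both groups overlapped, with 4 of 7 Control explants above the highest sPIF explant and 2 of 7 sPIF explants below the lowest Control explant. RHOF averaged 18.4 ± 3.58 CPM (SD, n = 7) in Control explants against 14.0 ± 3.08 CPM (SD, n = 7) in sPIF explants, and the fitted log2 difference with cow as a block was -0.41 (standard error 0.080), a level 24.6% lower. Within a cow the log2 difference ran from -0.52 in cow 3 to -0.28 in cow 6, with a mean of -0.40 ± 0.084 (SD, n = 7). A small spread between cows against the mean is part of what a paired test selects on, and so of how RHOF was chosen. Without cow 3 the fitted value was -0.39.

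PLEK2 had a higher level in the sPIF explant of every cow, by amounts that differed widely. In cow 4 the interval for counting error, given below as no test, included 0. The Control levels of PLEK2 in cows 1 to 7 were 11.2, 10.0, 5.11, 8.22, 6.70, 8.56 and 8.10 CPM. Its sPIF levels were 19.3, 16.2, 11.9, 9.77, 9.32, 13.5 and 11.3 CPM. Again the groups overlapped, with 5 of 7 sPIF explants above the highest Control explant and 5 of 7 Control explants below the lowest sPIF explant. PLEK2 averaged 8.27 ± 2.00 CPM (SD, n = 7) in Control explants against 13.0 ± 3.60 CPM (SD, n = 7) in sPIF explants, and the fitted log2 difference was 0.65 (standard error 0.13), a level 57.2% higher. The log2 difference within a cow was smallest in cow 4, at 0.25, and largest in cow 3, at 1.21, with a mean of 0.65 ± 0.30 (SD, n = 7). In cow 3 the Control explant had the lowest PLEK2 level of all 14 libraries. Without that cow the fitted value was 0.56.

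**Figure D1:**
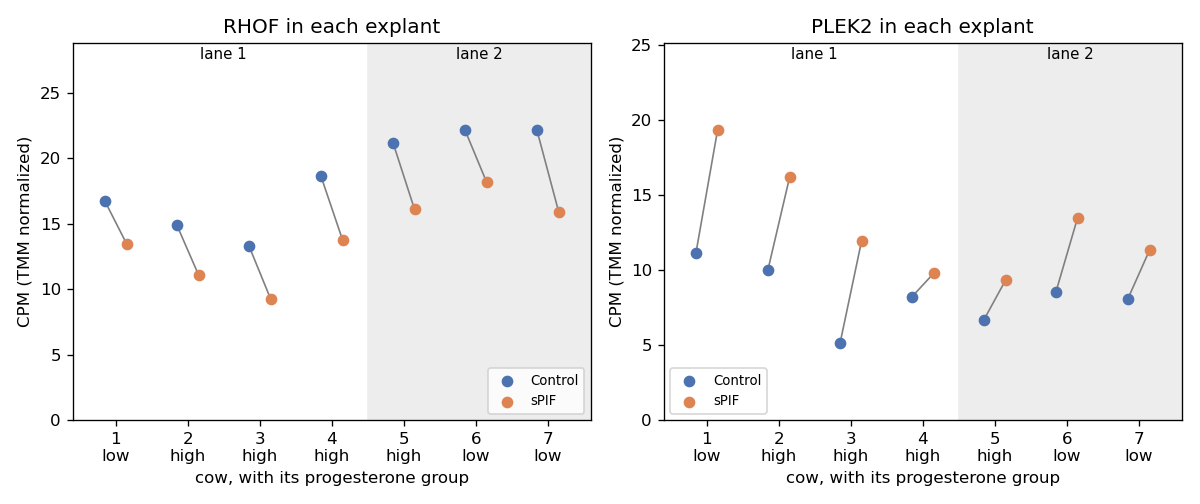
Level of RHOF (left) and PLEK2 (right) in each explant, in CPM after TMM normalization, with 1 point per library and a line joining the Control and sPIF explant of a cow; shading marks lane 2, and the word under each cow is its progesterone group. RHOF falls along every line, from 13.3 to 22.2 CPM in Control to 9.27 to 18.2 CPM in sPIF explants, and PLEK2 rises along every line, from 5.11 to 11.2 CPM to 9.32 to 19.3 CPM.

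For scale, the same counts were made over the whole table, in the contrast by which both genes were chosen. Of the tested genes, 212 (1.6%) were lower with sPIF in 7 of 7 cows, RHOF among them, and 176 (1.33%) were higher in 7 of 7, PLEK2 among them. By the size of the fitted difference PLEK2 stood near the upper end, with 69 of 13233 genes above it. RHOF lay further inside, with 411 genes below it and 856 of either sign that had a larger absolute difference.

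The depth behind these levels was modest. RHOF had 178 to 468 counts per library and PLEK2 121 to 404, so that counting alone gives a coefficient of variation between 4.62% and 9.09%. As a measure of that precision and no test, the 95% exact binomial (Clopper-Pearson) interval of the ratio between both explants covers counting error only. On the log2 scale its width over the 7 cows ran from 0.40 to 0.54 for RHOF, with a median of 0.45, and from 0.52 to 0.64 for PLEK2, with a median of 0.62. The PLEK2 interval of cow 4, from -0.056 to 0.56, was the only one that included 0. It describes counting precision and says nothing on variation between explants. Reads are not independent molecules, and whether both ends of a read pair were counted once or separately is not given in the sources used here, so that these intervals may be too narrow.

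Raw counts alone do not show the RHOF difference. RHOF was counted more often in the sPIF library of 4 of 7 cows, as in cow 1 with 273 Control and 282 sPIF counts, because those sPIF libraries were deeper. Divided by the total count of its library, without TMM, RHOF was lower with sPIF in 7 of 7 cows, and PLEK2 was higher in 7 of 7 with raw counts and with scaled ones.

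**Figure D2:**
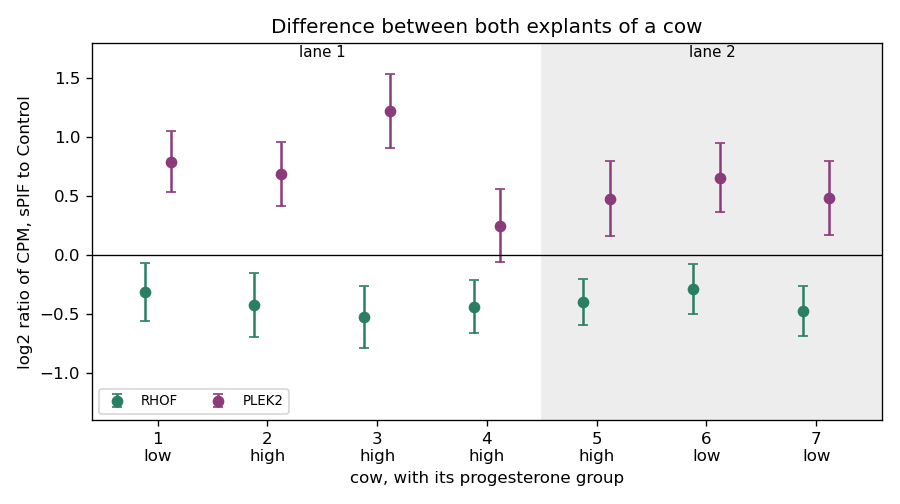
Log2 ratio of CPM between the sPIF and the Control explant of each cow for RHOF and PLEK2, with 95% exact binomial intervals that cover counting error only; shading marks lane 2. RHOF lies between -0.52 and -0.29 in all cows, while PLEK2 lies between 0.25 in cow 4 and 1.22 in cow 3.

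The ratio of both counts within a library needs no scaling for depth. The count of PLEK2 divided by that of RHOF was 0.667, 0.674, 0.384, 0.441, 0.316, 0.386 and 0.366 in the Control explants of cows 1 to 7. In the sPIF explants it was 1.43, 1.46, 1.29, 0.710, 0.579, 0.741 and 0.710. Gene length was not taken into account, so the ratio is meaningful only between libraries. It was higher with sPIF in every cow, by 1.61-fold in cow 4 to 3.35-fold in cow 3, with a median of 1.94-fold. A rise follows from the choice of PLEK2 as higher and RHOF as lower, and is no separate evidence of a difference. The ratio was highest in the sPIF explants of cows 1 to 3, while cow 5's lay within the Control range and those of cows 4, 6 and 7 just above it.

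Whether the sPIF differences of both genes went together from cow to cow could not be settled with 7 cows. Both genes were also chosen on these differences. Those of RHOF had an SD of 0.084, beside counting intervals 0.40 to 0.54 wide, which leaves little spread to correlate. Over the 7 cows, the within-cow log2 difference of RHOF and that of PLEK2 had a Pearson r of -0.19 (exact two-sided permutation test, p = 0.705) and a Spearman correlation of -0.071 (exact permutation p = 0.906). After Benjamini-Hochberg adjustment over 2 relations these were 0.938 and 0.906. Without cow 3 the sign was the opposite one, with r at 0.63 (exact permutation p = 0.179). Without cows 1 and 6, whose RHOF differences were farthest from the median, r was -0.70 over the remaining 5 cows, and the lanes, with 4 and 3 cows, gave -0.33 and 0.90. For the mean levels of both genes over cows, the other relation computed, r was -0.037 (exact permutation p = 0.938, also 0.938 after adjustment) and the Spearman correlation 0.11 (exact permutation p = 0.840, 0.906 after adjustment). Without cows 3 and 6 that r was -0.74, and within the lanes it was 0.38 and 0.89.

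Lane was a contrast that had no part in the choice of the genes. RHOF was higher in the cows of lane 2 than in those of lane 1. The mean log2 CPM of both explants was 3.92, 3.70, 3.49 and 4.01 in cows 1 to 4, and 4.22, 4.33 and 4.24 in cows 5 to 7. The lanes did not overlap, and cow 4 came closest. With counts summed per cow, the log2 difference between lane 2 and lane 1 was 0.44 (standard error 0.14), and edgeR gave it an adjusted p of 0.0495 (Benjamini-Hochberg). An exact two-sided permutation test of the cow means gave p = 0.0571, or 0.229 after adjustment over 4 comparisons, where 0.0286 is the smallest p that 4 against 3 cows allow.

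This difference has to be read against the table as a whole. Of all tested genes, 39.6% were called between lanes at an adjusted p below 0.1, and in 20% the cow means of lane 2 lay wholly above those of lane 1, as for RHOF. The call was lost without cow 2 (adjusted p = 0.120), without cow 6 (adjusted p = 0.157) and with progesterone group as a covariate (adjusted p = 0.128), all in edgeR, and adjusted p ranged from 0.0218, by DESeq2, to 0.157 over its 13 alternatives. Without cow 3 the difference was 0.36 (adjusted p = 0.0791 in edgeR). Each animal had its libraries in 1 lane alone, and lane and animal cannot be told apart.

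PLEK2 showed no such separation. Its mean log2 CPM was 3.89, 3.68, 2.98 and 3.18 in cows 1 to 4 and 3.00, 3.44 and 3.27 in cows 5 to 7. The levels in lane 2 lay inside the range of lane 1. The log2 difference between lane 2 and lane 1 was -0.23 (standard error 0.25, adjusted p = 0.522 in edgeR), and the exact permutation test gave p = 0.514. Without cow 3 it was -0.37 (adjusted p = 0.260 in edgeR) and without cow 1 -0.046 (adjusted p = 0.904 in edgeR), and adjusted p ranged from 0.213 to 0.904 over 13 alternatives. Cows 1 and 2 had the most PLEK2 and cow 3 the least, all 3 of them in lane 1.

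Lane and treatment together gave 4 levels for each gene. For RHOF these were 21.8 ± 0.550 CPM (SD, n = 3) in Control explants of lane 2, 16.7 ± 1.25 (SD, n = 3) in sPIF explants of lane 2, 15.9 ± 2.30 (SD, n = 4) in Control explants of lane 1 and 11.9 ± 2.12 (SD, n = 4) in sPIF explants of lane 1. The sPIF explants of lane 2 and the Control explants of lane 1 lay in overlapping ranges, from 15.9 to 18.2 and from 13.3 to 18.6 CPM, and do not differ beyond their spread. The order for PLEK2 was another one. It was 14.3 ± 4.27 CPM (SD, n = 4) in sPIF explants of lane 1, 11.4 ± 2.08 (SD, n = 3) in sPIF explants of lane 2, 8.63 ± 2.64 (SD, n = 4) in Control explants of lane 1 and 7.78 ± 0.968 (SD, n = 3) in Control explants of lane 2. Each neighbour in this order overlapped with the next.

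Both genes had lower mean levels in the high progesterone group, within the spread between cows. Control explants had 17.0 ± 3.58 (SD, n = 4) CPM of RHOF in the high and 20.3 ± 3.13 (SD, n = 3) in the low group, and 7.51 ± 2.10 (SD, n = 4) and 9.27 ± 1.65 (SD, n = 3) CPM of PLEK2. With counts summed per cow, the log2 difference between high and low was -0.27 (standard error 0.21) for RHOF and -0.34 (standard error 0.25) for PLEK2. The adjusted p in edgeR was 0.852 for either gene, and the exact permutation test gave p = 0.257 for each. Without cow 3 the differences were -0.18 for RHOF and -0.27 for PLEK2. With lane as a covariate they were -0.11 for RHOF and -0.50 for PLEK2. Leaving out cow 1 gave -0.12 for PLEK2, and leaving out cow 2 gave -0.51. No gene (0%) was called between progesterone groups by edgeR, where 458 of 13233 had an unadjusted p under 0.05, and DESeq2 called 24. Of the low group, cows 6 and 7 are in lane 2 and cow 1 in lane 1. With lane 1 alone, cow 1 had more PLEK2 than each of the 3 high cows, and its RHOF level lay between those of cows 2 and 4.

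Whether the sPIF difference varied with lane or with progesterone was tested as an interaction, with the caution that genes chosen for a steady difference are also chosen for a small spread. For RHOF the mean within-cow log2 difference was -0.42 ± 0.085 (SD, n = 4) in lane 1 and -0.38 ± 0.094 (SD, n = 3) in lane 2. The fitted difference of differences was 0.038 (standard error 0.17, adjusted p = 0.947 in edgeR). For PLEK2 the means were 0.73 ± 0.39 (SD, n = 4) in lane 1 and 0.53 ± 0.10 (SD, n = 3) in lane 2, and the fitted difference was -0.20 (standard error 0.26, adjusted p = 0.785 in edgeR). No gene (0%) was called for this interaction by edgeR, 1516 had an unadjusted p under 0.05, and DESeq2 called 175, neither RHOF nor PLEK2 being among them. Without cow 3 the PLEK2 interaction was -0.043 and that of RHOF 0.0050. Over 11 alternatives they ran from -0.36 to -0.043 for PLEK2 and from -0.012 to 0.080 for RHOF.

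Between progesterone groups the sPIF difference of RHOF was -0.44 ± 0.053 (SD, n = 4) in the high and -0.35 ± 0.10 (SD, n = 3) in the low group. That of PLEK2 was 0.65 ± 0.41 (SD, n = 4) and 0.64 ± 0.15 (SD, n = 3). The fitted interaction was -0.087 (standard error 0.17) for RHOF and 0.014 (standard error 0.27) for PLEK2, with an adjusted p of 1.00 in edgeR for either gene. Without cow 3 these were -0.061 and -0.17, and over 11 alternatives they ran from -0.14 to -0.033 for RHOF and from -0.17 to 0.15 for PLEK2. Again 0 genes (0%) were called, with 187 at an unadjusted p under 0.05 and 0 called by DESeq2. These standard errors leave room for differences between the groups that are as large as a good part of the sPIF difference itself.

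Differences between cows took the larger share of the variation of RHOF, while for PLEK2 cow and sPIF took similar shares. For RHOF, cow took 66.1% of the sum of squares of log2 CPM over the 14 libraries, of which 46.2 percentage points lay between lanes, sPIF took 32.7%, and 1.20% was left. For PLEK2, cow took 44.4%, with 4.17 percentage points between lanes, sPIF 46.8%, and 8.85% was left. For the median gene of the 13233 tested, the shares were 75.6% for cow, 27.9% for lane, 2.32% for sPIF and 22.0% left over. Without cow 3, cow took 55.5%, sPIF 43.1% and lane 43.8% for RHOF, and 51.6%, 43.9% and 17.0% for PLEK2. Since both genes were picked for their sPIF difference, a large share for sPIF is what the choice gives. The biological coefficient of variation in the paired fit was 12.5% for RHOF, lower than in all but 9.33% of tested genes, and 17.2% for PLEK2, near the middle with 49.8% of genes below it.

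Few of the other genes of the actin cytoskeleton could be followed. Symbols come from the study's supplementary list of 102 genes, of which 89 carry one, and the reference table used here held no Ensembl identifier. Of 264 genes in 15 lists, among them those of filopodia, lamellipodia, actin turnover, crosslinking, phosphoinositide 3-kinase signalling, stress and cell types, 6 had an identifier. Apart from RHOF and PLEK2 these were TPM2, ABLIM3, SMTN and CNN1, and the other 258 were not analysed here. All were listed by the study on these same samples, so that their sPIF difference is no independent evidence of a direction.

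Of the 35 genes listed for actin crosslinking and contraction, the 3 with an identifier are known here only because the study listed them as different. TPM2, which encodes a tropomyosin that lies along actin filaments, averaged 29.1 ± 14.5 CPM (SD, n = 7) without sPIF and 21.9 ± 11.6 CPM (SD, n = 7) after it, with a log2 difference of -0.43 (standard error 0.095) and a lower level in 7 of 7 cows. ABLIM3, an actin-binding LIM protein, had 61.2 ± 27.5 (SD, n = 7) and 78.1 ± 26.4 (SD, n = 7) CPM, with a log2 difference of 0.41 (standard error 0.10) and a higher level in 7 of 7 cows, though by 0.046 on the log2 scale in cow 7. SMTN, the gene of smoothelin, a protein of contractile smooth muscle, was named after its values were seen. It had 79.3 ± 24.2 (SD, n = 7) and 61.8 ± 29.0 (SD, n = 7) CPM, a log2 difference of -0.44 (standard error 0.11).

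Of these 3 genes SMTN had the pattern most like that of RHOF, with a correlation of 0.79 over the 14 libraries. Between lanes, SMTN was higher in lane 2 by 0.91 on the log2 scale (adjusted p = 0.00397), whereas TPM2 had a difference of -0.67 (adjusted p = 0.220) and ABLIM3 one of -0.20 (adjusted p = 0.722), all in edgeR. The fall of SMTN within a cow ran from -0.99 in cow 3 to -0.088 in cow 6, against -0.52 to -0.28 for RHOF, and this contrast in range was not tested. With cow 3 left out, the sPIF difference was -0.34 for SMTN, -0.45 for TPM2 and 0.37 for ABLIM3, and the correlation of SMTN with RHOF was 0.79. That likeness holds the lane and treatment differences: with their means subtracted and cow 3 left out it was -0.051, and the correlation of the within-cow sPIF differences was 0.56 over 7 cows and 0.18 without cow 3.

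Of 10 smooth muscle markers, 1 had an identifier, CNN1, the gene of calponin 1. Its level was 26.1, 34.8, 44.4, 89.2, 92.5, 100.5 and 159 CPM in the Control explants of cows 1 to 7 and 21.6, 31.0, 17.2, 45.9, 48.7, 63.5 and 118 CPM in the sPIF explants. It was lower with sPIF in 7 of 7 cows, with a log2 difference of -0.69 (standard error 0.14), and higher in lane 2 by 1.28 on the log2 scale (standard error 0.36, adjusted p = 0.0298 in edgeR). Over the 14 libraries, which share cows, lanes and treatment, log2 CPM of CNN1 and RHOF had a correlation of 0.81, and that of CNN1 and PLEK2 was -0.50. The within-cow sPIF differences of CNN1 and RHOF had a correlation of 0.46 over 7 cows and of 0.081 without cow 3, and those of CNN1 and PLEK2 one of -0.25 and of 0.78 without cow 3. Over the 12 libraries of the other cows the level of CNN1 had a correlation of 0.76 with that of RHOF and of -0.68 with that of PLEK2, and the sPIF difference of CNN1 was -0.58 (standard error 0.12). CNN1 was not among the 5 named genes closest to RHOF once lane and treatment means were subtracted, with cow 3 included. Without cow 3 its correlation with RHOF after that subtraction was 0.31. Of those 5 genes, PKDCC (0.19) and IFNAR2 (0.027) then lay below it, and LCN2 (0.33), CYSLTR2 (0.53) and FSTL3 (0.75) above. The part of smooth muscle in the RHOF level was not tested, and the other 9 smooth muscle markers and all markers of epithelium, stroma, endothelium, leukocytes and blood were not analysed here.

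Likeness of pattern was measured as Pearson correlation of log2 CPM over the 14 libraries, among the 85 other tested genes with a symbol. Closest to RHOF were FSTL3 (0.91), which encodes a follistatin-like inhibitor of activins, CYSLTR2 (0.86), a leukotriene receptor, ZBTB2 (0.85), a zinc finger protein, TRAF2 (0.82), an adaptor of TNF receptors, and CNN1 (0.81). FSTL3 ranked 7 among all 13232 other tested genes, 161 of which passed 0.8. All 85 come from the study's own list for sPIF, which holds both directions, and differences between lanes and treatments enter the correlation. Without cow 3, over 12 libraries, the 5 correlations were 0.88, 0.84, 0.89, 0.88 and 0.76. With the mean of each lane and treatment subtracted, FSTL3 again came first of the named genes, at 0.83. It was followed by PKDCC (0.71), a secreted kinase, LCN2 (0.65), an iron-binding lipocalin, CYSLTR2 (0.59) and IFNAR2 (0.57), a subunit of the type I interferon receptor. Among all tested genes these 5 then ranked 31, 301, 594, 871 and 1022, so that many genes without a symbol were more alike. Without cow 3 their correlations were 0.75, 0.19, 0.33, 0.53 and 0.027, so that those of PKDCC, LCN2 and IFNAR2 were weaker, that of LCN2 the least so. Leaving out other cows was not examined for these correlations.

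The genes closest to PLEK2 were NT5DC1 (0.86), SERPINA1 (0.82), the gene of alpha-1 antitrypsin, SLC5A5 (0.77), the sodium iodide symporter, ABLIM3 (0.72) and LCN2 (0.71). NT5DC1 ranked 4 among all other tested genes, 32 of which passed 0.8. Without cow 3 these were 0.85, 0.81, 0.67, 0.68 and 0.65. With lane and treatment means subtracted, the closest of the named genes were SERPINA1 (0.80), NT5DC1 (0.79), SLC5A5 (0.76), SYT17 (0.75), a synaptotagmin, and DHCR7 (0.71), the last enzyme of cholesterol synthesis. Among all tested genes they then ranked only 223, 278, 365, 406 and 556, and 231 genes passed 0.8. With cow 3 left out, these correlations were 0.65, 0.72, 0.57, 0.52 and 0.65. RHOF and PLEK2 themselves had a correlation of -0.42 over the 14 libraries and of 0.36 once those means were subtracted. Without cow 3 these were -0.74 and -0.14, so that the second was no longer positive.

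In the RefSeq annotation of the assembly ARS-UCD2.0, which is not the one the counts were made on, RHOF lies between SETD1B and TMEM120B and its span overlaps that of TMEM120B. Whether the counting used strand is not given in the sources used here, and reads from the shared stretch could then belong to either gene. PLEK2 lies between EIF2S1 and TMEM229B and overlapped no other annotated gene.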

How the data were processed

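The authors trimmed the paired-end reads with Trimmomatic (0.36.0), mapped them with Bowtie 2 (2.2.6) to the UMD3.1 assembly (Ensembl 89) and counted them on genes with featureCounts (1.4.6), adding both runs of cows 5 to 7. The deposited values are raw counts in 14 columns. A row of totals was left out.

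Tests used edgeR 4.0.16 (R 4.3.3) on genes that had 10 counts or more in each library, with TMM, the quasi-likelihood test and Benjamini-Hochberg adjustment over all genes tested. Cow was a block for sPIF and its interactions, since the labels number both explants of an animal alike. Their deviations from the group means had correlations of 0.412 to 0.764, with a median of 0.667. Between explants of different cows these ran from -0.559 to 0.543, with a median of -0.121. The lowest value within a cow lay inside that range, so the pairing of each cow rests on the labels. For lane and progesterone group, counts were summed per cow. Standard errors were derived from F, and log2 CPM used a prior count of 2. The paired fit was also run on simulated data, and no result given here rests on that run.

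Alternatives were DESeq2 1.42.0, upper quartile normalization, 10 counts in at least 1 library, no block, Control libraries alone and each cow left out. Added after seeing the data were scaling by total counts, lane or progesterone group alone or as a covariate, those of the correlation, and the listed genes, likeness and shares of variation without cow 3. Genes were named by rule: the members, genes of 3 lists, filopodia and pleckstrin among them, with an unadjusted p under 0.05 for sPIF, the 2 of each other list with the smallest p, and the 5 most alike. Members and lists were chosen with earlier results of these data known. Identifiers in the supplementary list had an extra 0 removed in 27 of 102 cases, PLEK2 included. Progesterone group came from the paper.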

Additional observations from a re-analysis of the deposited data

Results flagged for a closer look

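Of 9 groups of 7 values examined for 1 value far from the others, 2 were marked, where chance gives 0.45. The change of the PLEK2 to RHOF count ratio was 1.74 on the log2 scale in cow 3, while the other 6 cows lay between 0.687 and 1.11. The total count of the Control library of cow 3 was 25771250, against at most 19185319 in the other Control libraries. In cow 3 the Control library was deeper than the sPIF library, which held 18499937 counts. The same held in cow 2, with 19185319 and 16377453 counts, where the ratio change was 1.11. The ratio is taken within a library and needs no scaling for depth, and a link between the 2 marked values was not tested.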

How the results depend on the processing

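The sPIF difference stayed negative for RHOF, between -0.44 and -0.35, and positive for PLEK2, between 0.54 and 0.74, over 16 alternatives each. Both genes were chosen on this contrast, and each had the same sign in 7 of 7 cows. A sign kept when cows were left out is therefore no separate support. With no replicate block, so that the pairing was not used, the differences were -0.40 for RHOF and 0.66 for PLEK2. With DESeq2 the number of genes called rose from 0 to 100 for sPIF, to 24 for progesterone group and to 175 for sPIF by lane, and under the other alternatives these numbers were 0; the cause was not tested. The log2 difference of RHOF between lanes lay between 0.36 and 0.50 over 13 alternatives. It was no longer called with progesterone group as a covariate, at 0.39, nor when cow 2 or cow 6 was left out, and its range over the cows left out was 0.36 to 0.50; the cause was not tested. The lane difference of PLEK2, between -0.41 and -0.046, and the progesterone differences of RHOF, between -0.38 and -0.11, and of PLEK2, between -0.51 and -0.12, kept their sign and were called under none of 13 alternatives each, though their size varied severalfold; no interaction of either gene was called. The number of genes called between lanes lay between 3546 and 5637. The r between both sPIF differences ran from -0.35 to 0.63, the latter without cow 3, and passed 0.05 under none of 9 alternatives. With 3 or 4 cows a group and 121 to 468 counts per library, small lane or progesterone differences of these genes may have been missed. The size of difference that could be detected was not measured.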
